A study of Amaranthus powellii with 13 samples.

Results

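The most abundant leaf transcripts of green pigweed (Amaranthus powellii) were taken as the gene models with a mean of at least 1000 CPM over the 6 untreated libraries. CPM is the count of a gene model scaled to a common library size, here with TMM factors. The rule took 127 of 23820 gene models, 0.533% of the total, and these 127 members are described here. Their levels in untreated leaves are therefore a description of the choice, and a lower level after treatment was favoured by it. CPM carries no correction for gene length, so the order of members is one of reads and not of transcript molecules.

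Each library was the fourth leaf of a single plant. RU and RT were plants of population 501, resistant to the herbicide MCPA, without and with treatment, and SU and ST were the corresponding plants of the susceptible population 511. Each group held 3 plants, MCPA was sprayed at 1225 g a.e. per ha, and leaves were sampled 6 h later. All plants were kept until survival had been scored, and those sequenced were picked as the most representative, so they are not a random draw from either population. Each population is a single collection, so that resistance and any other difference between the collections cannot be told apart. A long-read library of mixed susceptible tissue was not analysed here.

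MCPA is a synthetic auxin, a herbicide that binds the auxin receptors of the TIR1/AFB family and releases auxin-responsive transcription from repression by Aux/IAA proteins. In leaves generally, a small set of nuclear genes supplies a large part of the messenger RNA, among them those for the small subunit of Rubisco, the chlorophyll a/b-binding proteins of the light-harvesting antennae and other parts of the photosynthetic machinery. The identifiers of the 127 members were not paired with gene names in the files used here, so which of them encode such proteins was not analysed here, and the tissue could not be checked against marker genes. Members are given by identifier.

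The reads had been aligned to gene models of a related species, smooth pigweed (A. hybridus). How reads shared by near-identical copies were counted is not given in the sources used here. A member that has such copies is therefore uncertain. Total counts were 22629698 to 29999982 per library. All 127 members had counts in all 12 libraries, from 7 to 858999, with a median lowest count of 16372, and the 95% exact binomial (Clopper-Pearson) interval of the share of any library described below was at most 0.0392 percentage points wide. That interval covers counting error only, and the plants differed by far more. Some plants lay at the edge of their group over most members, and 3 did so in over 100 members. In SU S116, 102 of 127 members were below both other SU plants, in ST S13 105 were below both other ST plants, and in ST S112 105 were above both. The next were RU S13, above both others in 89, RT S110, below both in 85, and RU S18 and SU S14, below and above both in 81 each. The median CV of a member over 3 plants was 7.74% in RU, 13.4% in RT, 19.5% in SU and 54.9% in ST.

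In untreated leaves the 127 members held roughly 2 in 5 counts. Their share was 42.7%, 40.6% and 41.8% of the counts in the RU plants S13, S18 and S118, and 39.0%, 41.2% and 33.6% in the SU plants S12, S14 and S116. After MCPA it was 34.1%, 34.4% and 31.0% in the RT plants S11, S14 and S110, and 17.3%, 23.8% and 32.4% in the ST plants S13, S16 and S112. Every RT plant lay below every RU plant and every ST plant lay below every SU plant. RT and ST overlapped, since ST S112 was within the range of RT. The means were 41.7% ± 1.05 in RU, 33.2% ± 1.90 in RT, 37.9% ± 3.92 in SU and 24.5% ± 7.57 in ST (SD, n = 3). The share is a sum over genes chosen for their level, and it was given no test. In bulk leaf RNA, fewer cells that express a transcript and less of it per cell cannot be told apart.

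**Figure D1:**
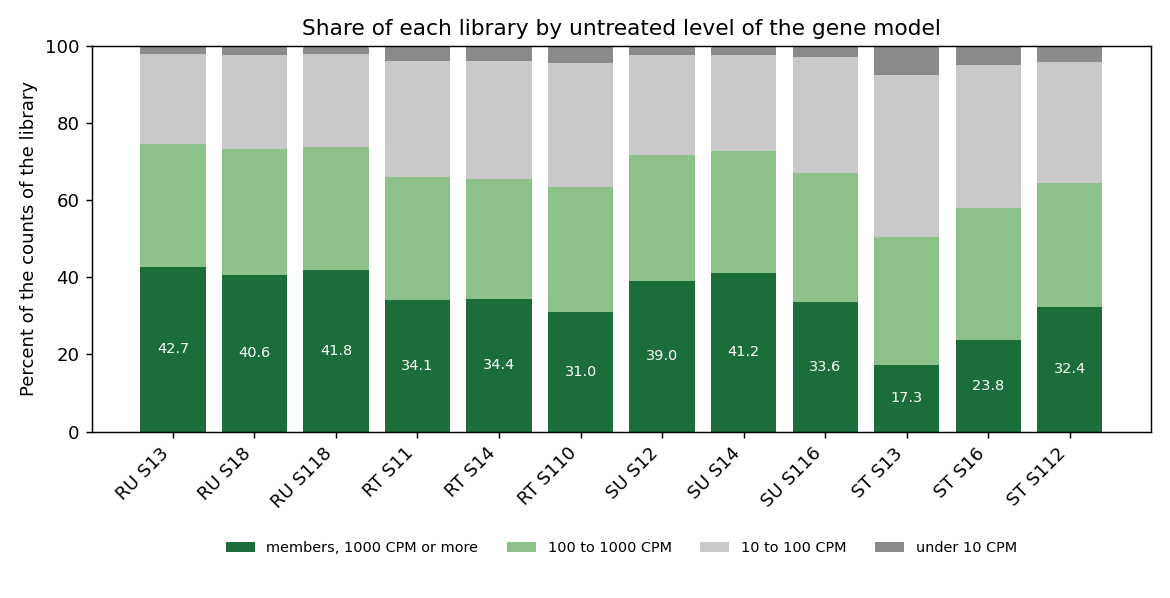
Percent of the counts of each library (y axis) held by gene models grouped by their mean CPM over the 6 untreated libraries, for 12 plants (x axis), with the members' percent printed in the bars. The members held 40.6% to 42.7% in RU, 31.0% to 34.4% in RT, 33.6% to 41.2% in SU and 17.3% to 32.4% in ST.

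The next tier by untreated level held close to the same share in all groups. Gene models with an untreated mean of 100 to 1000 CPM, of which there were 1485, held a mean of 32.2% in RU, 31.8% in RT, 32.6% in SU and 33.1% in ST. Those at 10 to 100 CPM held 23.9% in RU and 30.9% in RT, and 26.9% in SU and 36.8% in ST. Those under 10 CPM held 2.16% in RU and 4.08% in RT, and 2.51% in SU and 5.59% in ST. The shares of all tiers make up 100% of a library, so a lower share of members had to be matched by a higher share elsewhere. The tiers were also cut on untreated level, and a low untreated level favoured a rise. The number of gene models that together made up 50% of the counts was 230 to 274 in RU and 355 to 487 in RT. It was 271 to 478 in SU and 407 to 908 in ST, where the highest value belonged to ST S13. The TMM factor, which is above 1 where a library has less of its counts in a few genes, was also highest in ST S13 (1.29) and ST S16 (1.21) and lowest in RU S13 (0.843). Its part in the results below was not tested beyond the changes of scaling given after the calls.

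The loss of share was spread over many members. Between the means of RU and RT, the share of 107 members changed by -11.1 percentage points together and that of the other 20 by 2.58 points. It took 20 members to make up 50% of the loss, and the 5 largest losses summed to -2.62 points. Between SU and ST, 15 members changed by 1.56 points together and all others by -15.0 points. Here 23 members made up 50% of the loss, and the 5 largest losses summed to -2.98 points. In both populations the largest loss was that of Ah.04g165540, with a change of -0.80 points in RT and -0.93 points in ST. The largest gain in both was that of Ah.01g022060, with 0.48 points in RT and 0.36 points in ST.

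Among members chosen by their untreated level, more were called lower than higher in both populations, a direction that the choice favoured. In RT vs RU, edgeR's quasi-likelihood test with Benjamini-Hochberg adjustment over 16304 gene models called 26 members lower and 4 higher at an adjusted p under 0.05. Over all gene models tested, 14.1% were called lower and 15.6% higher, against 20.5% and 3.15% of members. The median log2 fold change was -0.55 over members and -0.01 over all gene models tested. In ST vs SU, 34 members were called lower and 1 higher, with 10.1% lower and 11.5% higher over all gene models tested, against 26.8% and 0.787% of members. The median was -1.01 over members and 0.02 over all. Fitted on the 6 libraries of a contrast alone, RT vs RU had 10 members called higher and 68 lower, against 24.1% of all gene models higher and 22.9% lower, and ST vs SU had 0 higher and 3 lower, against 3.34% and 2.23%. DESeq2 called 38 members lower and 8 higher in RT vs RU, against 16.7% and 17.8% of all gene models with an adjusted p, and 72 lower and 3 higher in ST vs SU, against 13.1% and 14.2%. With a log2 fold change below -2 as well, 2 members were called lower in RT vs RU and 5 in ST vs SU, where the background was 1.9% and 1.14%. No member passed a log2 fold change above 2 in either, where the background was 3.86% in RT vs RU and 3.45% in ST vs SU. The 100 to 1000 CPM tier lay between members and the rest by median, at -0.31 in both contrasts, and 28.4% of it was called lower in RT vs RU and 27.3% in ST vs SU. The share called lower in that tier was thus no smaller than that of the members, so that a large share of lower calls was not particular to the most abundant gene models.

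Levels that did not overlap between the treated and untreated plants of a population were more frequent than calls. In RT vs RU the 3 treated plants lay below the 3 untreated ones in 88 members and above them in 11, against 29.2% and 29.1% of all gene models tested. In ST vs SU they lay below in 58 members and above in 3, against 16.2% and 17.5%. The choice on untreated level favoured this direction too. In the 100 to 1000 CPM tier treated plants lay below in 51.9% of gene models in RT vs RU and 36.2% in ST vs SU, against 69.3% and 45.7% of members. They lay above in 19.3% and 9.7% of that tier, against 8.66% and 2.36% of members. In 54 members, 42.5%, all treated plants lay below all untreated plants of their own population in both populations, against 13.2% of all gene models tested. Only Ah.11g046770 and Ah.02g127380, 1.57% of the 127, lay above in both, against 14.2%.

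The rule used the untreated libraries of both populations, so gene models were also chosen in other ways. For all gene models tested, the shares called were 14.1% lower and 15.6% higher in RT vs RU. In ST vs SU they were 10.1% lower and 11.5% higher. Chosen on SU alone, 122 gene models passed, 120 of them members, and 25 were called lower and 3 higher in RT vs RU, with a median log2 fold change of -0.56. Chosen on RU alone, 143 passed, 126 of them members, and 42 were called lower and 1 higher in ST vs SU, with a median of -1.01. These choices still rest on untreated leaves. Chosen on the 6 treated libraries, 111 gene models passed, and the calls turned to 25 higher and 8 lower in RT vs RU and 20 higher and 15 lower in ST vs SU, with medians of -0.30 and -0.71. The 24 of them that were no members had a higher mean in treated than in untreated leaves by choice, so their calls are not given. The 87 that were members had 8 called lower and 4 higher in RT vs RU, and 15 lower and 1 higher in ST vs SU. Their medians were -0.45 and -0.85. The share of these 87 called lower was below that of all gene models in RT vs RU and above it in ST vs SU. The 40 members under 1000 CPM in treated leaves had a lower mean there by choice, so their calls are not given either. In a choice over all 12 libraries, added after the values were seen, 123 gene models passed, with 21 called lower and 11 higher in RT vs RU and 29 lower and 8 higher in ST vs SU, and medians of -0.51 and -0.91. The direction of the calls thus depended on the libraries used to choose, while the median over the whole of each choice was negative.

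Scaling by library totals in place of TMM moved the median of all gene models to 0.14 in RT vs RU and 0.28 in ST vs SU. Relative to that median the members stood at -0.56 and -1.05, against -0.54 and -1.03 with TMM. Calls of members were then 24 lower and 7 higher in RT vs RU, and 34 lower and 4 higher in ST vs SU. Over all gene models, library totals gave 8.99% lower and 18.2% higher in RT vs RU, and 5.68% lower and 19.6% higher in ST vs SU.

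The number of members called moved with single plants. Without ST S112, 92 members were called lower and 1 higher in ST vs SU, against 11.5% and 12.7% of all gene models tested. Without ST S13, 37 were called lower and 3 higher in ST vs SU, against 10.3% and 10.9%. The same omission gave 51 lower and 7 higher in RT vs RU, against 18.5% and 19.4%, since all groups share the estimate of spread. Without ST S13 and SU S116, 50 were lower and 3 higher in ST vs SU, against 11.3% and 11.6%, and 58 lower and 8 higher in RT vs RU, against 22.1% and 22.7%. Leaving out ST S16, SU S12 or SU S14 brought the calls in ST vs SU to 16, 18 and 21, where 7.88%, 5.77% and 7.35% of all gene models were called lower. Leaving out any 1 plant of RU or RT brought the calls in RT vs RU to 17 to 19, against 8.49% to 11% of all gene models lower, and leaving out ST S112 brought them to 50, against 15% lower. The median log2 fold change over members in ST vs SU was -0.71 without ST S13 and -1.47 without ST S112.

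**Figure D2:**
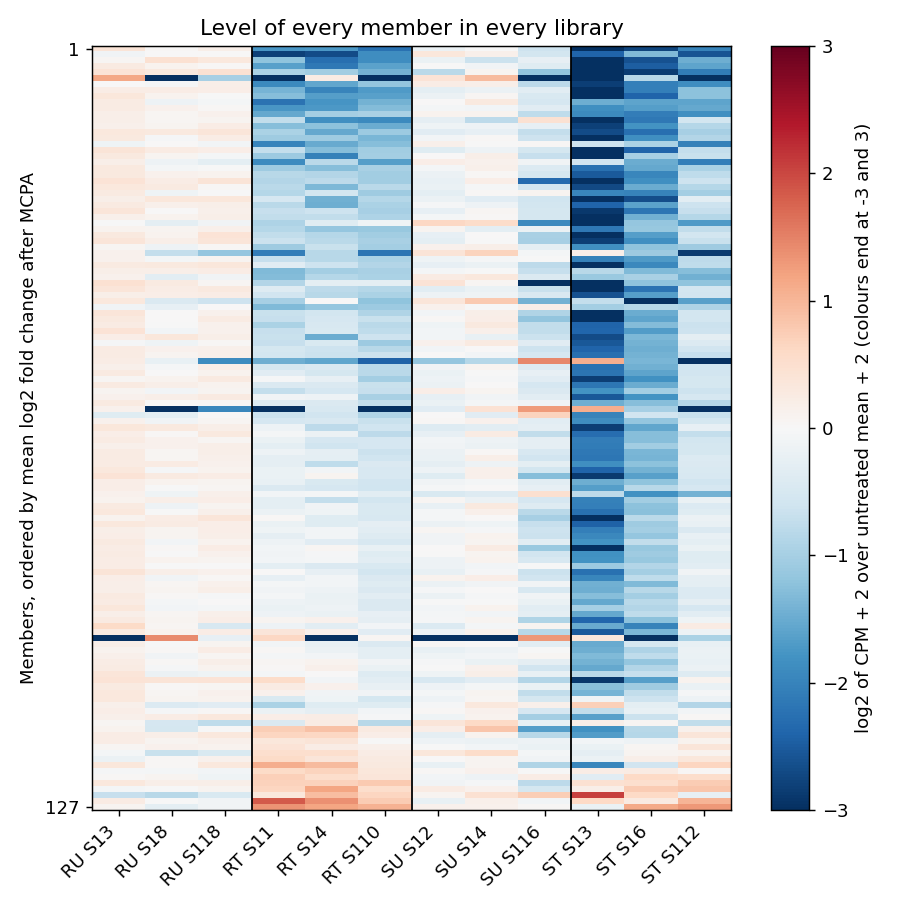
Level of each of the 127 members (rows, ordered by the mean of their log2 fold changes in both populations) in each of 12 plants (columns), as the log2 ratio of its CPM + 2 to its mean over the 6 untreated plants + 2. The treated plants are mostly blue, and a few rows switch between high and low among plants of 1 group.

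Plant by plant, every treated plant had more members below the range of its untreated group than above it. In RT, 98 members of S11, 92 of S14 and 110 of S110 were below all 3 RU plants, and 16, 15 and 11 were above. In ST, all but 15 members of S13, 106 members of S16 and 66 of S112 were below all 3 SU plants, and 6, 9 and 13 were above. The median log2 ratio of members to the untreated mean of the plant's own population was -0.48 in RT S11, -0.52 in RT S14 and -0.75 in RT S110. It was -1.92 in ST S13, -1.12 in ST S16 and -0.35 in ST S112. Within ST the plants thus spanned a wider range than the plants of RT, and ST S112 was nearer to its untreated mean than any RT plant.

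Members mostly moved the same way in both populations. The log2 fold changes had the same sign in 123 of 127 members (96.9%), positive in 11 of them and negative in the rest, against 81.3% of all gene models tested. The 4 exceptions were Ah.15g096100, Ah.12g052410, Ah.01g010730 and Ah.12g055580. Of the members called lower, 25 were called in both populations (19.7% of members against 7.76% of all gene models tested), 9 in ST vs SU only (7.09% against 2.34%), and 1, Ah.13g067350, in RT vs RU only (0.787% against 6.39%). No member was called in opposite directions. Over the 127 members the fold changes of the populations were correlated at 0.842 (Pearson) and 0.817 (Spearman). The populations share no libraries, but members are not independent of each other and share the depth and scaling of each library, so no p is given.

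**Figure D3:**
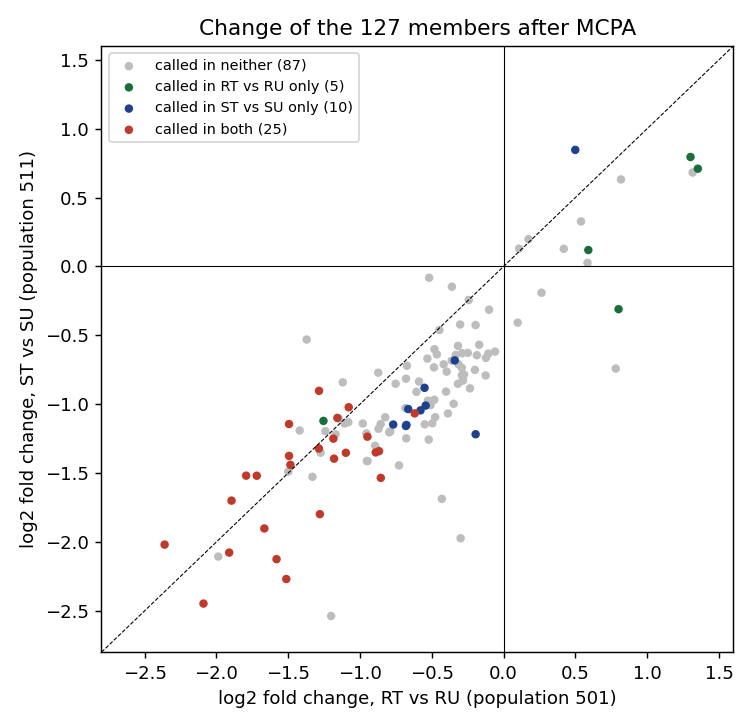
Log2 fold change of each of the 127 members in RT vs RU (x axis) and ST vs SU (y axis), with the dashed line marking equal change and colours marking the contrast in which it was called at an adjusted p under 0.05. The 25 members called in both are all at the lower left, negative in both, and 104 of the 127 members lie below the dashed line.

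The log2 fold change was lower in ST vs SU than in RT vs RU in 104 of 127 members, with a median difference between populations of 0.34 for members and -0.02 for all gene models tested. The members' median difference was 0.09 without ST S13 and 0.79 without ST S112. The difference itself, tested as the change in RT vs RU less that in ST vs SU (the interaction), passed for no member in edgeR, against 0% of all gene models higher and 0.0123% lower. At an unadjusted p under 0.05 it passed for 2 members, Ah.01g010730 and Ah.02g126670, both higher, where 3.06% of all gene models were higher and 3.07% lower. DESeq2 called 1 member higher, Ah.01g010730, where it called 0.556% of all gene models higher and 0.386% lower. A larger response of the members in the susceptible population was therefore not shown for any single member by edgeR. Among treated plants, 114 of 127 members had a positive log2 fold change in RT vs ST, with a median of 0.62 for members and -0.04 for all, and this contrast used no library of the rule. EdgeR called 0 members in RT vs ST, where it called 0.092% of all gene models higher and 0.159% lower. At an unadjusted p under 0.05, 23 members were higher and 0 lower, against 4.91% and 7.34% of all gene models tested. DESeq2 called 5 members higher, against 1.06% of all gene models higher and 1.36% lower. The 3 RT plants lay above the 3 ST plants in 20 members and below them in 1, against 7.49% and 7.84% of all gene models tested. In the 100 to 1000 CPM tier 12.1% lay above and 4.31% below in RT vs ST, against 15.7% and 0.787% of members. This contrast rested on the spread in ST, since its median over members was 0.32 without ST S13 and 1.03 without ST S112, when 12 members were called higher, against 0.443% of all gene models.

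In untreated leaves most members had a higher mean in RU than in SU, but none was called. In RU vs SU the median log2 fold change was 0.29 over members and -0.01 over all gene models tested. Without SU S116 the members' median was 0.17. The RU plants lay above the SU plants in 56 members and below them in 3, where 11.6% of all gene models tested lay above and 11.6% lay below. In the 100 to 1000 CPM tier 24.8% lay above and 7.81% below, against 44.1% and 2.36% of members, so the tilt was not particular to the members. EdgeR called 0 members, with 0.135% of all gene models called higher and 0.11% lower, and DESeq2 called 0, against 0.938% and 1.33%. At an unadjusted p under 0.05 there were 2 members, Ah.00g000890 and Ah.01g010730, both lower in RU, where 6.02% of all gene models were lower and 3.94% higher.

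The most abundant member was Ah.11g043140, with a mean of 26465 CPM over untreated plants. It had 31933, 28554 and 31121 CPM in RU and 34117, 28990 and 20762 CPM in RT. In SU it had 23823, 28377 and 14984 CPM and in ST 4591, 10201 and 23988 CPM. Treated and untreated plants overlapped in both populations, and ST spanned the widest range, with S13 low and S112 within the range of SU. The log2 fold change was -0.12 (SE 0.52, adjusted p = 0.884) in RT vs RU and -0.79 (SE 0.52, adjusted p = 0.307) in ST vs SU. In RT vs RU it was 0.02 when scaled by library totals and 0.05 without RT S110, so it had no direction. Its share of the library averaged 2.697% in RU, 2.73% in RT, 2.16% in SU and 1.43% in ST.

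The member with the next highest untreated mean, Ah.04g165540 at 13898 CPM, differed from it. Its level was 14100, 13624 and 15649 CPM in RU and 3680, 4709 and 6080 CPM in RT. It was 16110, 15780 and 8122 CPM in SU and 1975, 3368 and 3815 CPM in ST. Treated plants lay below untreated plants in both populations with no overlap, and SU S116 was the lowest of the untreated plants. The fold changes were -1.58 on the log2 scale (SE 0.36, adjusted p = 0.00825) in RT vs RU and -2.12 (SE 0.37, adjusted p = 0.0031) in ST vs SU.

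Ah.10g037840 followed at 11064 CPM. It had 12889, 10958 and 11048 CPM in RU, 9053, 8164 and 8021 CPM in RT, 10033, 10425 and 11034 CPM in SU and 5196, 6045 and 8954 CPM in ST. All treated plants lay below all untreated plants of their population, but the log2 fold changes of -0.46 (SE 0.26, adjusted p = 0.199) in RT vs RU and -0.64 (SE 0.26, adjusted p = 0.0998) in ST vs SU did not pass. Its neighbour by identifier, Ah.10g037830, was chosen after its values were seen. It spanned 339 to 5369 CPM in ST alone. The levels of these neighbours were correlated at 0.935 (Pearson, on the log2 scale) and 0.811 (Spearman) over 12 libraries.

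The members called with the lowest log2 fold changes, among those whose groups did not overlap, each passed a log2 fold change of -2 in at least 1 population. Ah.15g094930 was one of them in both contrasts. It had 10504, 8142 and 9095 CPM in RU against 2387, 2412 and 1706 CPM in RT, and 7114, 7918 and 5209 CPM in SU against 547, 1180 and 1982 CPM in ST. The log2 fold change was -2.09 (SE 0.42, adjusted p = 0.00434) in RT vs RU and -2.45 (SE 0.42, adjusted p = 0.00312) in ST vs SU. Every treated plant was below every untreated plant of either population.

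Ah.08g211720 fell furthest in RT vs RU. Its values were 1540, 1669 and 1655 CPM in RU, 236, 257 and 453 CPM in RT, 2077, 1818 and 1129 CPM in SU and 311, 656 and 270 CPM in ST. The lowest untreated plant, SU S116, was above the highest treated plant, ST S16. The log2 fold change was -2.36 (SE 0.40, adjusted p = 0.00184) in RT vs RU and -2.02 (SE 0.39, adjusted p = 0.00557) in ST vs SU. Ah.01g013740, named for ST vs SU, had 6963, 6390 and 7096 CPM in RU, 2679, 2523 and 1949 CPM in RT, 2963, 5554 and 2280 CPM in SU and 299, 718 and 1222 CPM in ST. Its log2 fold change was -1.51 (SE 0.47, adjusted p = 0.0349) in RT vs RU and -2.27 (SE 0.49, adjusted p = 0.00893) in ST vs SU, and RT S14 and RT S11 lay above the lowest SU plant. In RT vs RU this call was lost without any 1 plant of RU or RT (adjusted p = 0.0765 to 0.11 in edgeR) and without SU S12 or ST S16 (0.05004 and 0.05007). In ST vs SU, 5 members were both called and below a log2 fold change of -2. They were Ah.04g165540, Ah.15g094930, Ah.08g211720, Ah.01g013740 and, at -2.08, Ah.16g103070. The lowest log2 fold change of any member in that contrast, -2.54, was not called. Fitted on the 6 libraries of ST vs SU alone, the edgeR calls of the first 4 in that contrast were lost, with adjusted p = 0.063, 0.0592, 0.0608 and 0.0916.

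**Figure D4:**
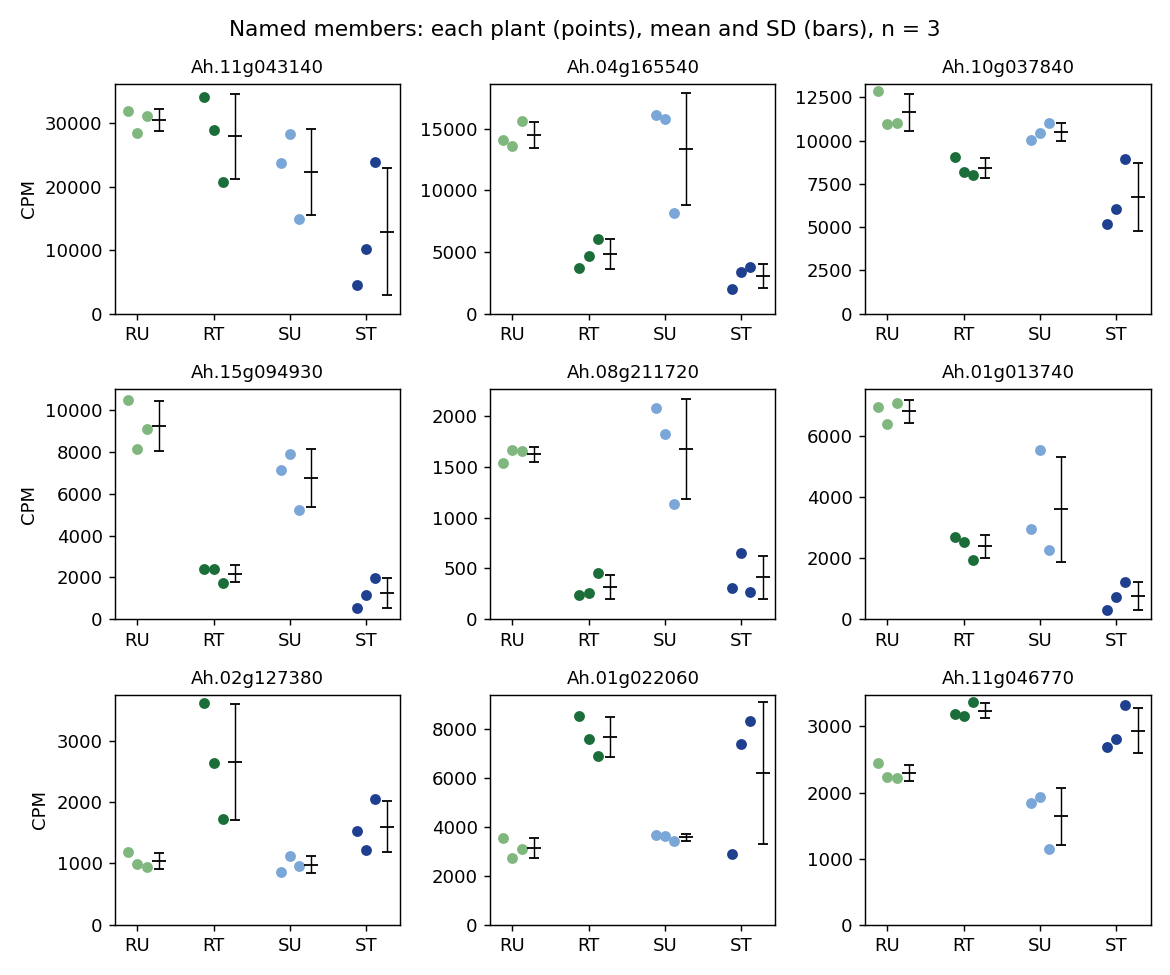
CPM (y axes, from 0) of 9 members in every plant of RU, RT, SU and ST (points), with the mean and SD over 3 plants beside them. The first row holds the 3 members with the highest untreated mean, the middle row holds 3 members that fell in both populations, and the last row holds 3 that edgeR called higher in 1 of them, Ah.02g127380 and Ah.01g022060 in RT vs RU and Ah.11g046770 in ST vs SU.

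Few members rose. In RT vs RU the 4 called higher were Ah.02g127380, Ah.01g022060, Ah.01g010730 and Ah.12g062390. Ah.02g127380 lay close to the limit of the rule when untreated. It had 1195, 998 and 937 CPM in RU and 3620, 2635 and 1723 CPM in RT, with no overlap, and a log2 fold change of 1.35 (SE 0.30, adjusted p = 0.00685). In ST vs SU, where it had 860, 1126 and 955 CPM in SU and 1523, 1224 and 2051 CPM in ST, again with no overlap, the log2 fold change of 0.71 (SE 0.29, adjusted p = 0.108) did not pass in edgeR. It passed with library totals (adjusted p = 0.0176) and in DESeq2 (adjusted p = 0.0481).

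Ah.01g022060, which gained the most share, had 3538, 2719 and 3113 CPM in RU and 8534, 7622 and 6895 CPM in RT. Its log2 fold change in RT vs RU was 1.30 (SE 0.35, adjusted p = 0.0173), and the edgeR call was lost without RU S18, RU S118 or RT S11 (adjusted p = 0.0752, 0.0623 and 0.0587). In SU it had 3683, 3645 and 3426 CPM and in ST 2911, 7390 and 8331 CPM, where S16 and S112 were above all SU plants and S13 was below them all. The log2 fold change in ST vs SU was 0.79 (SE 0.34, adjusted p = 0.124). It passed without ST S13, at 1.13 (adjusted p = 0.0028 in edgeR), with library totals (adjusted p = 0.0271) and in DESeq2 (adjusted p = 0.0486). Ah.11g046770, the 1 member called higher in ST vs SU, had 1842, 1926 and 1145 CPM in SU and 2683, 2804 and 3319 CPM in ST, and its log2 fold change was 0.85 (SE 0.23, adjusted p = 0.0236). The edgeR call was lost without SU S12, SU S116 or ST S16 (adjusted p = 0.0548, 0.0596 and 0.0508) and with the 6 libraries of the contrast alone (adjusted p = 0.186). In RU it had 2441, 2235 and 2216 CPM and in RT 3190, 3160 and 3371 CPM, which did not overlap either, at 0.50 (SE 0.23, adjusted p = 0.122), and this passed with library totals (adjusted p = 0.0201), with the 6 libraries alone (adjusted p = 0.00889) and in DESeq2 (adjusted p = 0.0298).

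Ah.01g010730 was the member for which the populations came closest to a called difference in response. It had 1823, 1197 and 1401 CPM in RU and 2726, 2732 and 2226 CPM in RT, and its log2 fold change was 0.80 (SE 0.24, adjusted p = 0.0295). In SU it had 2410, 2819 and 1826 CPM and in ST 1585, 2041 and 2052 CPM, which overlapped, at -0.31 (SE 0.24, adjusted p = 0.39). The interaction was 1.11 on the log2 scale (SE 0.34, adjusted p = 0.508 in edgeR), and 1.12 with an adjusted p of 0.0326 in DESeq2.

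Some members varied far more between plants of the same group than between groups. The largest ratios among untreated plants were those of Ah.04g166230 and Ah.04g166210, at 11465 and 177. Ah.04g166210 had 11579, 65.5 and 2613 CPM in the RU plants S13, S18 and S118, where Ah.04g166230 had 0.404, 3895 and 1215 CPM. In RT S11, S14 and S110 the levels were 7.27, 6151 and 9.48 CPM for Ah.04g166210 and 2231, 12.6 and 1505 CPM for Ah.04g166230. The same alternation was present in population 511. In SU S12, S14 and S116, Ah.04g166210 had 6885, 9974 and 69.6 CPM against 0.340, 0.633 and 3564 CPM for Ah.04g166230. In ST S13, S16 and S112 the values were 5.73, 2904 and 7.40 CPM against 1828, 0.254 and 753 CPM.

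Each plant thus carried one of these gene models at a high level and the other at a low one, except RU S118. Of the summed CPM of the pair, Ah.04g166210 made up at least 99% in 5 libraries, at most 5% in 6 libraries and 68.3% in RU S118. Both kinds of plant occurred in all 4 groups. On the log2 scale the Pearson correlation of the pair was -0.842 and the Spearman correlation was -0.699 over 12 libraries. Neither was called in any contrast, and whether they are copies of a single locus was not tested, since no sequence of the gene models was used here.

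**Figure D5:**
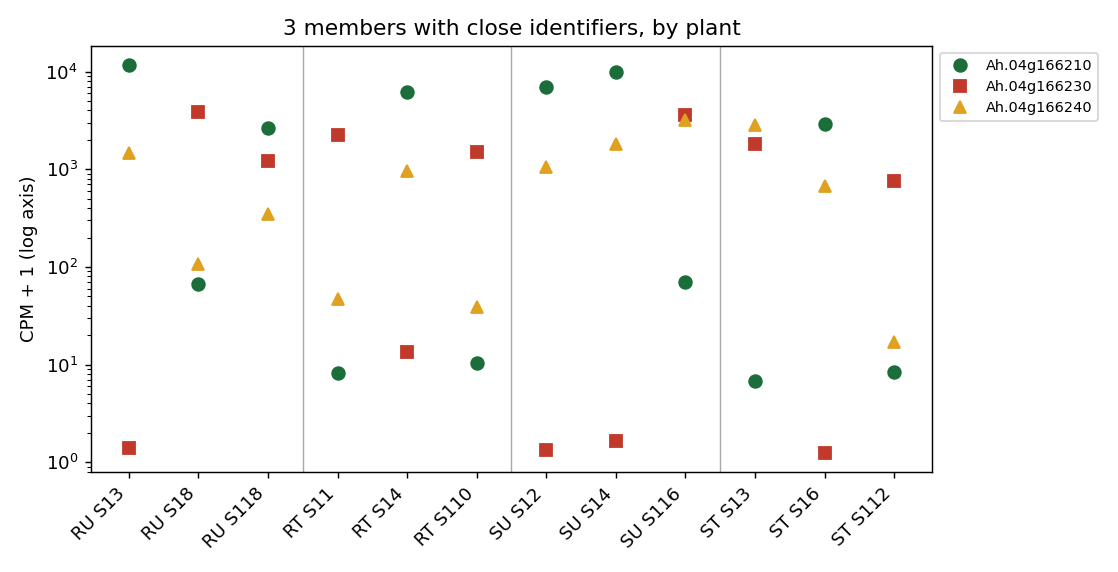
CPM + 1 (y axis, log scale) of Ah.04g166210, Ah.04g166230 and Ah.04g166240 in each of 12 plants (x axis), with vertical lines between groups. In 5 plants Ah.04g166210 is at 2904 CPM or more while Ah.04g166230 is under 13 CPM, in 6 plants Ah.04g166230 is at 753 CPM or more while Ah.04g166210 is under 70 CPM, and RU S118 holds both.

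The identifiers around this pair, chosen after their values were seen, did not all vary in the same way. Ah.04g166200, no member, had a Pearson correlation of 0.970 with Ah.04g166210 on the log2 scale over 12 libraries, at 0 to 224 CPM. Ah.04g166240, a member, had its highest levels in SU S116 and ST S13, at 3224 and 2862 CPM, and its lowest in ST S112, at 16.2 CPM. Ah.04g166250, no member, was steady at 39.9 to 56.7 CPM.

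Other members also varied among plants within a group. Ah.09g231050, the member just inside the limit of the rule at 1008.1 CPM, had 1347, 1042 and 16.7 CPM in the SU plants S12, S14 and S116. It had 14.6, 434 and 435 CPM in the ST plants S13, S16 and S112, and 545 to 1391 CPM in population 501. The plants that were low, SU S116 and ST S13, were those in which most members were below the other plants of the group. Ah.06g194930, chosen after its values were seen, was highest in that same pair, at 4483 CPM in SU S116 and 3552 CPM in ST S13. Its other levels ran from 33.2 CPM in ST S112 to 1951 CPM in RU S13. Just outside the limit lay Ah.06g189830, at 999.28 CPM.

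Among the members were 5 pairs with adjoining identifiers, and these did not vary alike. Their Pearson correlations were taken on the log2 scale. The pair Ah.09g227460 and Ah.09g227470 was correlated at 0.996 (Pearson) and 0.986 (Spearman) over 12 libraries, and Ah.02g126660 and Ah.02g126670 at 0.367 and 0.322. Ah.00g000890 and Ah.00g000900 went opposite ways, at -0.791 (Pearson) and -0.671 (Spearman). Ah.00g000890 had 1402, 1258 and 1644 CPM in RU, 2865, 4291 and 3536 CPM in RT, 2374, 3077 and 3770 CPM in SU and 9417, 3415 and 1886 CPM in ST. Ah.00g000900 had 3527, 2763 and 3053 CPM in RU, 1682, 1773 and 1363 CPM in RT, 2307, 2856 and 1898 CPM in SU and 368, 598 and 1684 CPM in ST. In RT vs RU the plants of both did not overlap, but the log2 fold changes of 1.32 (SE 0.50, adjusted p = 0.0692) and -0.95 (SE 0.46, adjusted p = 0.145) did not pass. In ST S13 the first was at its highest level and the second at its lowest.

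After MCPA the ranks above 1000 CPM were partly filled by other gene models. Over the means of the 6 treated libraries, 111 gene models reached 1000 CPM, of which 87 were members and 24 were not, while 40 members were below it. By group, 126 members reached a mean of 1000 CPM in RU, 95 in RT, 120 in SU and 70 in ST. In RT 28 and in ST 21 gene models that were no members did so, against 17 in RU and 2 in SU. The 24 were chosen for their treated level and get no test here. Their summed share was 0.648% to 0.694% in RU and 3.88% to 4.48% in RT, and 0.561% to 0.627% in SU and 3.78% to 4.84% in ST. In untreated leaves 16 of them averaged 100 to 1000 CPM, 6 averaged 10 to 100 CPM, 1 averaged 1 to 10 CPM and 1 was under 1 CPM.

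The gene models with the highest treated means among these 24 were Ah.02g123380 and Ah.03g134140. Ah.02g123380 had 120, 170 and 159 CPM in RU and 4185, 3771 and 3801 CPM in RT. In SU it had 31.6, 22.3 and 32.5 CPM and in ST 2267, 4040 and 6155 CPM. Ah.03g134140 had 428, 478 and 422 CPM in RU against 2413, 3199 and 2454 CPM in RT, and 620, 712 and 514 CPM in SU against 5179, 3508 and 2898 CPM in ST. The treated plants were above all untreated plants for both gene models, and ST S13, lowest over the members, had the highest level of Ah.03g134140 and the lowest treated level of Ah.02g123380. The gene model that averaged under 1 CPM in untreated plants, Ah.02g125690, had 1261 to 2240 CPM in the treated plants.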

How the data were processed

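Leaf RNA of 12 plants, 3 in each of RT, RU, ST and SU, was analysed, with groups taken from the sample labels. The authors prepared stranded mRNA libraries, trimmed the reads with fastp 0.23.4, mapped them to the genome of smooth pigweed in STAR 2.7.4a and deposited unnormalized read counts of each gene model. Which tool counted the reads, and its settings for strand and multi-mapping, was not given in the sources used here. A further table of counts on a de novo transcriptome, for which the authors used CD-HIT 4.8.1, Bowtie 2 2.5.2, samtools 1.19, Subread 2.0.6 and TransDecoder 5.7.1, served only as an alternative, with 1 value for each of 37218 transcripts.

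Members were the gene models at a mean of 1000 CPM or more over the 6 untreated libraries, with CPM after TMM on gene models with any count. The members, lists and tests were chosen with earlier results of these data known. Counts were fitted in R 4.3.3 with edgeR 4.0.16 (filterByExpr with minimum count 10, minimum total 15, TMM, glmQLFit with robust estimation over 12 libraries, glmQLFTest, Benjamini-Hochberg over 16304 gene models, all 127 members included). The test was also run on simulated counts, for RT vs RU only, in which all groups of a gene model had the same spread. That run does not cover the unequal spread of the groups here. SE is the log2 fold change over the square root of F. Total counts were 22629698 to 29999982 per library, so counting error was small beside the spread between plants. All p-values rest on the spread between plants within groups, with 3 plants in each. In the fit over 12 libraries that spread is pooled over the 4 groups and is also informed by the other gene models.

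Alternatives were RLE, library totals, TMM without members, no filter and a stricter filter, the 6 libraries of a contrast alone, DESeq2 1.42.0 with and without apeglm 1.24.0, fold limits, leaving out plants, and other limits or libraries for choosing members. The choice over all 12 libraries was added after the values were seen. Named were the 3 members with the highest untreated mean, at most 2 called members of highest and 2 of lowest log2 fold change in each contrast with no overlap between groups, the 2 with the largest ratio among untreated plants, the gene models next to the limit, and the 2 non-members with the highest treated mean. Lists by function and cell type markers could not be used because the files used here do not pair identifiers with names. No sequence was read.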

Additional observations from a re-analysis of the deposited data

How the results depend on the processing

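Calls of members are given as higher and lower together, against 30 in RT vs RU, 35 in ST vs SU and 0 in RT vs ST, RU vs SU and the interaction. Leaving out each plant in turn gave 17 to 58 in RT vs RU, 16 to 93 in ST vs SU and 0 to 12 in RT vs ST. Over all gene models these omissions gave 8.49% to 18.5% lower and 9.5% to 19.4% higher in RT vs RU. In ST vs SU they gave 5.77% to 11.5% lower and 6.21% to 12.7% higher, and in RT vs ST at most 0.407% lower and 0.443% higher. Without ST S13 and SU S116 the counts were 66 in RT vs RU, 53 in ST vs SU and 1 in RT vs ST (Ah.02g126670). Only the 6 libraries of a contrast gave 78 in RT vs RU and 3 in ST vs SU (Ah.08g220460, Ah.02g112270 and Ah.15g092450). DESeq2 gave 46 in RT vs RU, 75 in ST vs SU, 5 in RT vs ST (Ah.01g013740, Ah.12g062390, Ah.02g126670, Ah.05g171100 and Ah.02g112270) and 1 in the interaction. A log2 fold change above 2 or below -2 gave 2 in RT vs RU and 5 in ST vs SU, and 1 and 3 with DESeq2 and apeglm. With apeglm 1.39% of all gene models were lower and 3.33% higher in RT vs RU, and 0.905% and 3.11% in ST vs SU.

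A limit of 500 CPM took 251 gene models. Of these, 74 were called in RT vs RU (6 higher, 68 lower) and 81 in ST vs SU (2 higher, 79 lower). Their mean shares were 49.7% in RU, 39.5% in RT, 45.7% in SU and 30.8% in ST. A limit of 2000 CPM took 71. Of those, 12 were called in RT vs RU (1 higher, 11 lower) and 16 in ST vs SU (0 higher, 16 lower). Their mean shares were 34.2% in RU, 27.1% in RT, 30.3% in SU and 18.9% in ST. Over all gene models tested, 14.1% were called lower and 15.6% higher in RT vs RU, and 10.1% and 11.5% in ST vs SU. Members chosen on the treated libraries held 36.8% in RU, 34.3% in RT, 32.9% in SU and 25.9% in ST. They turned the calls to 25 higher and 8 lower in RT vs RU and 20 higher and 15 lower in ST vs SU, and 5 of them were called in RU vs SU (Ah.13g077870, Ah.11g045770, Ah.04g163880, Ah.02g123380 and Ah.01g001790). Without the most abundant member the share in RU was 40.1%. In the de novo counts 117 transcripts passed the rule, with shares of 20.4% in RU, 15.2% in RT, 19.9% in SU and 11.8% in ST, 12 called in RT vs RU, 26 in ST vs SU and 1 in RT vs ST. The first 12 were lower, 10.3% of 117, where 14.1% of all transcripts were called lower and 15.4% higher, and the 26 were lower, where 12% were lower and 12.3% higher. The 1 in RT vs ST was higher, where 0.0872% of all transcripts were higher and 0.139% lower. The log2 fold change of Ah.11g043140 in RT vs RU, -0.12, was 0.020 with library totals and ran from -0.29 without RT S11 to 0.050 without RT S110. Where no cause is given by the construction of an alternative, the cause was not tested.

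Each group held 3 plants, and the median CV of a member was 54.9% in ST. No paired analysis was possible because the groups compared share fewer than 2 plant numbers.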

Other observations

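The members spanned 1008.1 to 26465 CPM in untreated plants, with a median of 2362 CPM, and 22 of the 127 were at 5000 CPM or more, 49 at 2000 to 5000 CPM and 56 under 2000 CPM. In 32 members no library was under 1000 CPM. In 11 members the log2 fold change lay between -0.5 and 0.5 in both populations. The steadiest member, Ah.01g017920, chosen after its values were seen, ran from 1328 to 2043 CPM over the 12 libraries (CV 13.5%), where the median CV of a member over 12 libraries was 40.7%.

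By the prefix of the identifier, members were 3 of 173 gene models with the prefix Ah.00 and 20 of 2331 with Ah.01. They were 12 of 1472 with Ah.08 and 13 of 1739 with Ah.04. With Ah.07 they were 2 of 1274, with Ah.06 3 of 1543 and with Ah.16 2 of 980. Over all gene models the share was 0.533%.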
